A study of Mus musculus with 9 samples.

Results

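Chemokines and chemokine receptors were examined in the livers of mice with nonalcoholic steatohepatitis (NASH). The genes were chosen by symbol: every row named Ccl, Cxcl, Ccr or Cxcr followed by a number, Ackr followed by a digit, and Cx3cl1, Cx3cr1, Xcl1 and Xcr1. This rule took 55 of the 24008 genes in the count table, namely 33 ligands, 18 signalling receptors and 4 atypical receptors. RNA came from whole liver of 9 mice, 3 in each of 3 groups, with 1 library per mouse. All mice were kept on a high fat and high carbohydrate diet that produces NASH, were 8 weeks old at the start and were collected 4 weeks after a virus injection. The sources used here give both 24 and 12 weeks for the diet before that injection. Flox mice carry the floxed Irf4 allele without Cre and are called WT in the sample labels. F4MKO mice lack interferon regulatory factor 4 (IRF4) in skeletal muscle, through Cre driven from the Myl1 locus in muscle, so the deletion is not in liver cells. F4MKO + FSTL1 mice carry the same deletion and received an adeno-associated virus with a muscle promoter, injected into the gastrocnemius, that makes Flag-tagged follistatin-like protein 1 (FSTL1). According to the methods the other 2 groups received a virus encoding GFP, which the labels do not name.

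Chemokines are small secreted proteins that guide the movement of leukocytes. They bind G protein-coupled receptors, most of which recognise several ligands, and a cell moves towards the ligands whose receptors it carries. Atypical receptors bind chemokines without G protein signalling and take them up, which shapes the gradients. In fatty liver disease, chemokines made by hepatocytes, Kupffer cells, stellate cells and endothelium are known to draw monocytes, lymphocytes and neutrophils into the tissue.

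The 9 libraries held 20656976 to 24322984 counted reads. The 55 genes took 0.0615% of them in F4MKO replicate 1, the highest share, and 0.0370% to 0.0489% in the other libraries. Only 37 of the 55 had enough counts to be tested among 14379 genes, and the filter passed no member through 1 group alone. Levels are given as CPM, read counts divided by the library size as adjusted by edgeR's TMM method, in the order of replicates 1, 2 and 3. Hepatocyte markers summed to between 75810 and 112000 CPM in each library, so the defining genes of the labelled tissue were present. Irf4 had 131, 132 and 101 counts in Flox, 120, 128 and 130 in F4MKO and 10, 92 and 116 in F4MKO + FSTL1 libraries. Liver Fstl1 mRNA was 6.15, 7.62 and 6.52 CPM in Flox, 16.1, 9.80 and 11.3 CPM in F4MKO, and 5.33, 3.22 and 4.34 CPM in F4MKO + FSTL1 libraries. Fstl1 was called lower in F4MKO + FSTL1 than in F4MKO livers (log2 -1.53, adjusted p = 0.00171, edgeR), with the highest values in F4MKO and the lowest in F4MKO + FSTL1 livers. The name of the last group refers to FSTL1 made in muscle and predicts no order of Fstl1 mRNA in liver. Most of the chemokine genes called lower also had their highest group mean in F4MKO and their lowest in F4MKO + FSTL1 livers. The deletion and the virus both act in muscle, so neither target gene can check the labels in liver RNA. Every comparison between groups rests on the labels unchecked. By quantitative PCR in livers of these groups, the paper reports unchanged Fstl1 mRNA. It also reports fibrosis genes lower in F4MKO than in control livers and restored with FSTL1, and inflammatory genes reversed by FSTL1. Here the stellate cell and myofibroblast marker sums, given below, were highest in F4MKO and lowest in F4MKO + FSTL1 livers. The reason for this difference was not tested. In RNA from whole tissue, fewer cells of a type and less RNA per cell cannot be told apart.

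A member was called when edgeR's quasi-likelihood test over all 14379 genes gave a Benjamini-Hochberg adjusted p under 0.05 and the fold change was above 1.5. In F4MKO + FSTL1 compared with F4MKO livers, 16 of the 37 tested members were called lower and 1 was called higher. Among all genes tested, 11.2% were called lower and 3.21% higher in this comparison. The lower members included the ligands Ccl2, Ccl3, Ccl6, Ccl9, Ccl22, Cxcl9, Cxcl14 and Cx3cl1, the signalling receptors Ccr1, Ccr2, Ccr7, Cxcr3, Cxcr4 and Cx3cr1, and the atypical receptor Ackr3. The higher member was the atypical receptor Ackr4. The log2 fold change was negative in 30 of the 37 members and positive in 7, against 48.6% and 51.4% of all genes, with a median of -0.95 over the members and 0.01 over all genes. All 12 tested signalling receptors had a negative log2 fold change, from -1.71 to -0.43, whereas the 21 tested ligands ran from -2.40 to 0.84. In 20 members every F4MKO + FSTL1 library lay below every F4MKO library, and in 2 (Ackr4 and Ccl25) every one lay above. Such a separation was seen in 21.1% of all genes tested for lower values and in 18% for higher values. Without F4MKO + FSTL1 replicate 2, 11 members were called, all of them lower, and without F4MKO replicate 1, 12 were called. Without F4MKO + FSTL1 replicate 1, the library with 10 Irf4 counts, 16 were called.

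In F4MKO compared with Flox livers, 0 of 37 members were called by edgeR, against a background of 0.202% of genes called higher and 0.0695% called lower. At an unadjusted p under 0.05, 9 members were higher (Cxcr4, Ccl9, Cxcl14, Ccl22, Cx3cl1, Cx3cr1, Xcr1, Ccr1 and Ccr2) and 2 were lower (Cxcl13 and Ccl25), where 9.35% and 7.51% of all genes were. DESeq2 called 4 members higher (Cxcr4, Cx3cl1, Cx3cr1 and Ccr2) and 0 lower, with 1.68% of genes called higher and 0.554% lower. Every F4MKO library lay above every Flox library in 11 members and below in 2, compared with 11.7% and 10% of all genes. The log2 fold change was positive in 26 members and negative in 11, against 49.4% and 50.6% of all genes, and its median was 0.36 over the members and -0.00 over all genes. Both this comparison and the previous one use the same F4MKO libraries, so a high F4MKO library moves both.

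In F4MKO + FSTL1 compared with Flox livers, edgeR also called 0 of 37 members, with 0.00695% of all genes called lower and 0% called higher. At an unadjusted p under 0.05, 12 members were lower (among them Ackr2, Ackr3, Ccl2, Ccl3, Ccl4, Ccl6, Ccl24, Ccr7, Cxcl9, Cxcr3 and Cxcr4) and 0 were higher, where 9.12% and 4.26% of all genes were. DESeq2 called 2 members lower, among them Cxcl9, of the 33 it tested, with 1.64% of genes called lower and 0.351% higher. The groups did not overlap in 14 members, all lower in F4MKO + FSTL1, compared with 10.7% of all genes lower and 7.44% higher. Of the 37 members 31 had a negative and 6 a positive log2 fold change, against 50.1% and 49.9% of all genes, with a median of -0.49.

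**Figure D1:**
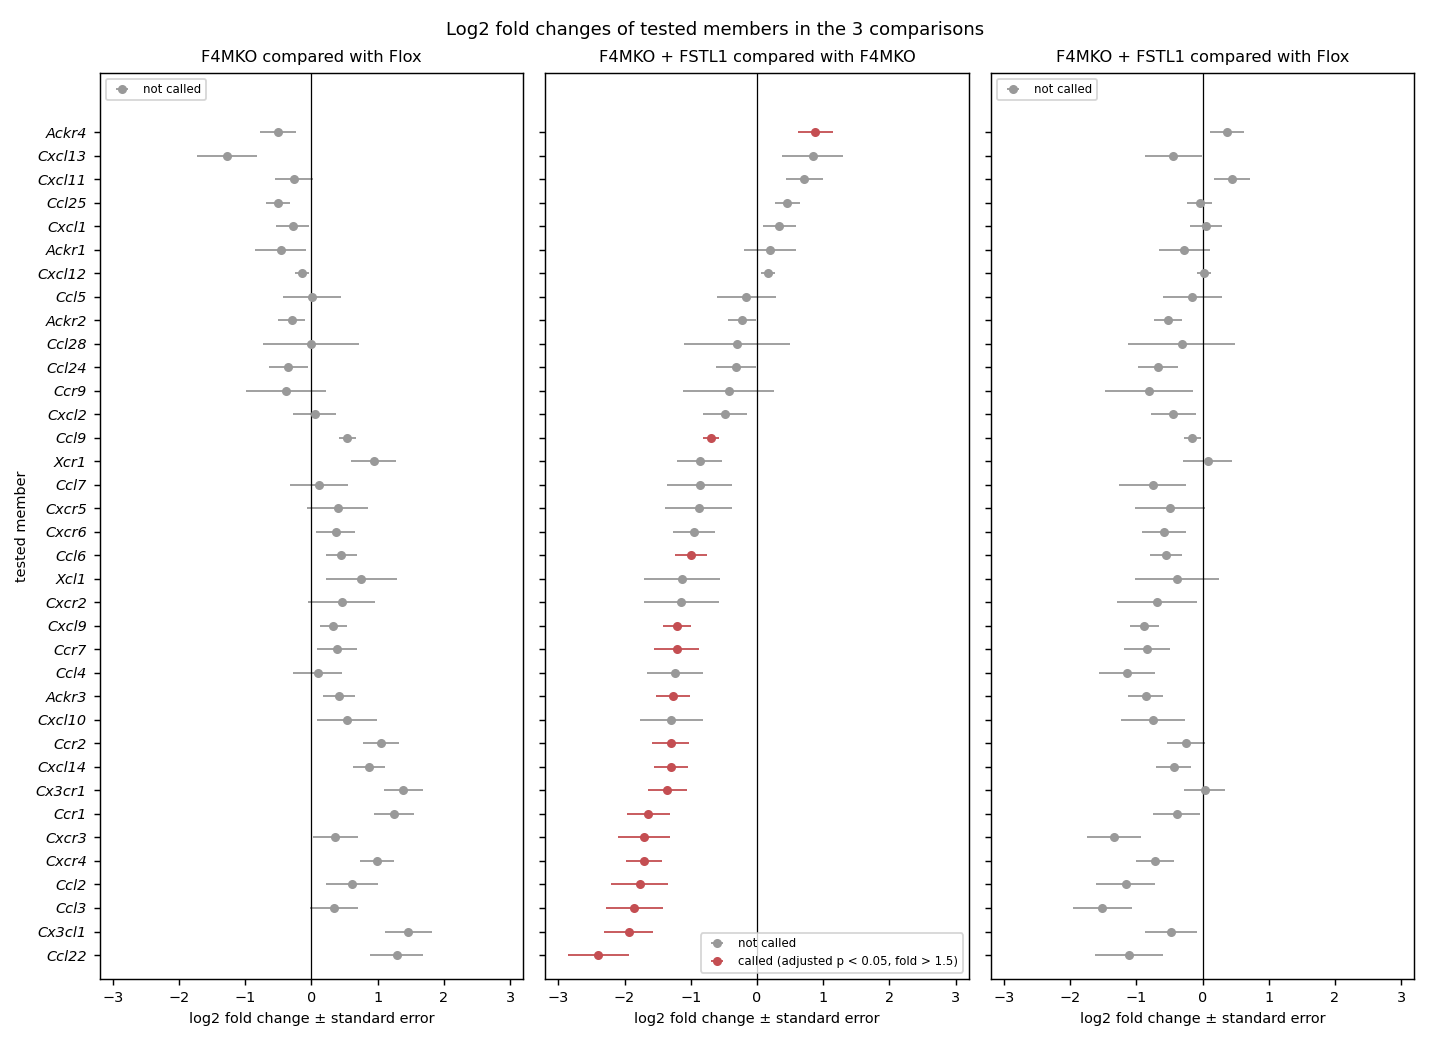
Log2 fold change ± standard error of 36 tested members in the 3 comparisons (edgeR, n = 3 mice per group), ordered by the middle panel, with called members in red. In the middle panel 15 of the members shown were called below 0 and 1 above it, while no member was called in the panels on either side.

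Among the monocyte-attracting CC ligands, Ccl2 was called and Ccl7 was not. Ccl2, the main ligand of CCR2, was at 3.12, 1.76 and 2.22 CPM in Flox, 6.12, 2.26 and 2.40 CPM in F4MKO and 1.17, 1.35 and 0.627 CPM in F4MKO + FSTL1 livers. All 3 F4MKO + FSTL1 livers lay below all others, and F4MKO replicate 1 stood far above the rest. The fold change between F4MKO + FSTL1 and F4MKO was 3.42-fold lower (log2 -1.77, SE 0.43, adjusted p = 0.0155, edgeR). Without F4MKO replicate 1 the log2 value was -1.14 and the call was lost (adjusted p = 0.0577). In F4MKO compared with Flox the log2 fold change of Ccl2 was 0.61 with that library and -0.02 without it (adjusted p = 0.459 and 0.989, edgeR). Ccl7, a further CCR2 ligand encoded beside Ccl2, ran from 0.451 to 0.936 CPM in Flox, from 0.335 to 1.06 CPM in F4MKO and from 0.240 to 0.467 CPM in F4MKO + FSTL1, with overlap between all groups (log2 -0.87 in F4MKO + FSTL1 compared with F4MKO, adjusted p = 0.229). Ccr2, the receptor that brings classical monocytes out of the bone marrow, was at 3.92, 3.07 and 4.26 CPM in Flox, 10.3, 5.53 and 7.42 CPM in F4MKO and 4.30, 2.12 and 3.03 CPM in F4MKO + FSTL1 livers. The 3 F4MKO livers lay above all others, and the Flox and F4MKO + FSTL1 values overlapped. Ccr2 was 2.46-fold lower in F4MKO + FSTL1 than in F4MKO (log2 -1.30, SE 0.28, adjusted p = 0.00857, edgeR). Its 2.07-fold difference between F4MKO and Flox did not pass edgeR's test (adjusted p = 0.106), and it did pass DESeq2's (adjusted p = 0.0159).

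The inflammatory CC ligands that act on CCR1, CCR3 and related receptors had 6 tested members, of which Ccl3, Ccl6 and Ccl9 were called lower in F4MKO + FSTL1 than in F4MKO livers. Ccl9 and Ccl6, CCR1 ligands that myeloid cells of rodents make, were the most abundant of them. Ccl9 was at 45.0, 43.6 and 48.5 CPM in Flox, 72.2, 65.6 and 61.9 CPM in F4MKO and 49.3, 34.4 and 39.5 CPM in F4MKO + FSTL1 livers. The F4MKO values stood clear of both other groups, which overlapped. The difference between F4MKO + FSTL1 and F4MKO was 1.62-fold (log2 -0.70, SE 0.12, adjusted p = 0.0039, edgeR), and that between F4MKO and Flox was 1.46-fold (adjusted p = 0.0761). Ccl6 was at 27.3, 25.9 and 49.8 CPM in Flox, 44.2, 52.9 and 43.8 CPM in F4MKO and 21.0, 19.1 and 30.3 CPM in F4MKO + FSTL1 livers. Flox replicate 3 lay within the F4MKO range, and all F4MKO + FSTL1 values lay below it (2.0-fold lower in F4MKO + FSTL1 than in F4MKO, SE 0.24 on the log2 scale, adjusted p = 0.0145, edgeR). Without F4MKO + FSTL1 replicate 2, Ccl9 stayed significant but fell under the 1.5-fold threshold (log2 -0.58, adjusted p = 0.0199) and Ccl6 lost its call (log2 -0.87, adjusted p = 0.0689).

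Ccl3, a ligand of CCR1 from activated macrophages, was at 1.20, 0.533 and 1.24 CPM in Flox, 1.80, 0.963 and 0.958 CPM in F4MKO and 0.374, 0.288 and 0.366 CPM in F4MKO + FSTL1 livers. The F4MKO + FSTL1 values rested on 8, 6 and 7 counts and lay below every other library. Ccl3 was 3.61-fold lower in F4MKO + FSTL1 than in F4MKO (log2 -1.85, SE 0.43, adjusted p = 0.0121, edgeR). The adjusted p was 0.0529 without F4MKO replicate 1 and 0.0568 without F4MKO + FSTL1 replicate 2. Ccl4, an inflammatory ligand encoded next to Ccl3, was at 1.65, 0.820 and 1.46 CPM in Flox, 1.84, 0.670 and 1.64 CPM in F4MKO and 0.654, 0.481 and 0.627 CPM in F4MKO + FSTL1 livers. Its F4MKO + FSTL1 values were again the lowest, but the test was missed (log2 -1.24, SE 0.42, adjusted p = 0.0563, edgeR). Ccl4 was called lower by DESeq2, without the filter on low counts, with the replicate number as a block and without F4MKO replicate 2. Ccl5, a ligand made by T and NK cells, ran from 2.53 to 5.08 CPM in Flox, 2.39 to 4.71 CPM in F4MKO and 1.78 to 6.21 CPM in F4MKO + FSTL1 livers. These ranges overlapped throughout (log2 -0.16, SE 0.45, adjusted p = 0.83), an error too wide to tell a change of the size of Ccl9 from none. Ccl24, an eosinophil attractant acting through CCR3, gave a log2 value of -0.32 (adjusted p = 0.479, edgeR).

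Ccr1, a receptor of these ligands on monocytes and neutrophils, was at 0.758, 0.778 and 0.710 CPM in Flox, 2.26, 1.09 and 2.0 CPM in F4MKO and 0.654, 0.481 and 0.575 CPM in F4MKO + FSTL1 livers. None of the 3 groups overlapped another, and the F4MKO + FSTL1 values rested on 14, 10 and 11 counts. The decrease from F4MKO to F4MKO + FSTL1 was 3.12-fold (log2 -1.64, SE 0.32, adjusted p = 0.0054, edgeR), and F4MKO exceeded Flox by 2.38-fold without a call (adjusted p = 0.0864).

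The promoter of Ccl9 is shown because it was the only promoter among 14 called members with a sequence that held a match to the NF-kB consensus, the motif bound by the inflammatory transcription factor of that name. It is the RefSeq sequence (GRCm38.p6) from 250 bases before to 50 bases after the start of the gene, at chr11:83578587-83578886 on the minus strand, with the match in capitals.
Ccl9: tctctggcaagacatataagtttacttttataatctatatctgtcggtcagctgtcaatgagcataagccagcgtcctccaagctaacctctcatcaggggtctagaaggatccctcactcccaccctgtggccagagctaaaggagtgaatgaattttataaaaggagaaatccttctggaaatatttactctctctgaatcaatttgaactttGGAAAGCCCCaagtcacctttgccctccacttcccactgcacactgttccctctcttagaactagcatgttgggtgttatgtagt
The first base of the match lies at position -35 from the start. The table of 300-base promoters gave 43 for 41 genes matching the symbol rule. These include Cxcl15, which is not among the 55 genes of the count table, and it held no match. Ccl2 and Ccr7 were among the members without a promoter. On either strand, the NF-kB consensus was found in 9 of these 43 promoters (20.9%) and in 4.5% of 32817 promoters of all genes. Of the 8 other members with a match, Cxcl1, Cxcl2, Cxcl10 and Ackr2 were not called in any comparison, and Ccl20, Cxcl3, Ccr3 and Ccr6 were not tested.

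Ccl22 and Cx3cl1 lie next to each other on chromosome 8 (GRCm38, chr8:94745590-94751699 and chr8:94772009-94782427, both on the plus strand) and had the largest fold changes among the members. Ccl22, a CCR4 ligand of dendritic cells and macrophages, was at 0.490, 0.738 and 0.799 CPM in Flox, 2.19, 0.754 and 2.0 CPM in F4MKO and 0.374, 0.192 and 0.366 CPM in F4MKO + FSTL1 livers. F4MKO replicate 2 lay within the Flox range, and the F4MKO + FSTL1 values rested on 8, 4 and 7 counts. Ccl22 was 5.28-fold lower in F4MKO + FSTL1 than in F4MKO (log2 -2.40, SE 0.46, adjusted p = 0.00505, edgeR). Cx3cl1, or fractalkine, is a membrane-anchored chemokine of epithelium and endothelium and the ligand of CX3CR1. Its values were 1.92, 1.72 and 1.20 CPM in Flox, 7.25, 2.76 and 3.27 CPM in F4MKO and 0.981, 1.35 and 1.15 CPM in F4MKO + FSTL1 livers. Every F4MKO value exceeded every other value, with replicate 1 far above the rest. Cx3cl1 was 3.83-fold lower in F4MKO + FSTL1 than in F4MKO (log2 -1.94, SE 0.37, adjusted p = 0.00505, edgeR), and the log2 value was between -2.18 and -1.38 when each library was left out in turn. In F4MKO compared with Flox, its 2.75-fold difference had an adjusted p of 0.0864 with edgeR and 0.00859 with DESeq2. Ccl17, the neighbouring CCR4 ligand, had 0 to 10 counts and was not tested, and their receptor gene Ccr4 had 0 or 1.

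Cx3cr1, the fractalkine receptor of patrolling monocytes and monocyte-derived macrophages, was at 2.99, 3.44 and 3.28 CPM in Flox, 11.8, 5.28 and 8.34 CPM in F4MKO and 4.53, 2.35 and 3.03 CPM in F4MKO + FSTL1 livers. The F4MKO livers were above all others, and the other 2 groups overlapped. Cx3cr1 was 2.56-fold lower in F4MKO + FSTL1 than in F4MKO (log2 -1.36, SE 0.29, adjusted p = 0.00882, edgeR). Between F4MKO and Flox it had the smallest adjusted p of all members, at 0.061 with edgeR for a 2.62-fold difference and 0.00111 with DESeq2, and without F4MKO replicate 2 it was called (adjusted p = 0.0362, edgeR).

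The interferon-inducible CXC ligands of CXCR3, which attract activated T cells, are neighbours on chromosome 5 and did not share 1 direction. Cxcl9 was at 17.7, 24.3 and 23.9 CPM in Flox, 35.4, 26.4 and 21.0 CPM in F4MKO and 15.1, 9.76 and 10.9 CPM in F4MKO + FSTL1 livers. The F4MKO + FSTL1 livers lay below all others, and the Flox and F4MKO values overlapped. Cxcl9 was 2.31-fold lower in F4MKO + FSTL1 than in F4MKO (log2 -1.21, SE 0.21, adjusted p = 0.00372, edgeR). Compared with Flox it was 1.84-fold lower in F4MKO + FSTL1 without an edgeR call (adjusted p = 0.125) and with a DESeq2 call (adjusted p = 0.0107). Cxcl10 was at 11.6, 5.78 and 8.48 CPM in Flox, 24.6, 6.03 and 6.75 CPM in F4MKO and 5.37, 4.71 and 5.22 CPM in F4MKO + FSTL1 livers. The high F4MKO mean came from replicate 1, while replicates 2 and 3 lay within the Flox range. Its log2 fold change between F4MKO + FSTL1 and F4MKO was -1.30 (SE 0.48, adjusted p = 0.074, edgeR), and the error was the widest of the 3 ligands. Cxcl10 was called lower without the filter on low counts, with the replicate block and without F4MKO replicate 2 or 3. All of these settings keep F4MKO replicate 1, and without that library Cxcl10 was not called. Cxcl11 was at 2.76, 1.52 and 2.22 CPM in Flox, 2.26, 1.42 and 1.68 CPM in F4MKO and 3.41, 3.22 and 2.19 CPM in F4MKO + FSTL1 livers, with overlap. Its log2 fold change had the opposite sign (0.71, SE 0.28, adjusted p = 0.0901). The annotation places a processed pseudogene over 41.7% of the exon bases of Cxcl11, so its counts are less certain. Cxcr3, their shared receptor, was at 0.981, 0.574 and 0.843 CPM in Flox, 1.34, 0.754 and 0.958 CPM in F4MKO and 0.234, 0.240 and 0.470 CPM in F4MKO + FSTL1 livers. The last 3 values, from 5, 5 and 9 counts, lay below all others. Cxcr3 was 3.26-fold lower in F4MKO + FSTL1 than in F4MKO (log2 -1.70, SE 0.40, adjusted p = 0.0121, edgeR), with an adjusted p of 0.0525 without F4MKO replicate 1 and 0.0592 without F4MKO + FSTL1 replicate 2.

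The promoters of Cxcl9 and Cxcl10 are shown since both genes are induced by interferon and differed in their call. They are RefSeq sequences of GRCm38.p6, at chr5:92328030-92328329 and chr5:92348840-92349139, both on the minus strand and 300 bases long. Capitals mark matches to the core of the interferon-stimulated response element (ISRE core, searched as GAAA followed by any 2 bases and GAAA again) and to the NF-kB consensus.
Cxcl9: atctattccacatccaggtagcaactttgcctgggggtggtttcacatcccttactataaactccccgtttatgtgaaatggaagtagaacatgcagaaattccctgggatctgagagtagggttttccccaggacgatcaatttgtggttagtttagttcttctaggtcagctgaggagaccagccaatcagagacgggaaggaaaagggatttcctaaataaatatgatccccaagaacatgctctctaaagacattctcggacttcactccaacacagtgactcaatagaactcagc
Cxcl10: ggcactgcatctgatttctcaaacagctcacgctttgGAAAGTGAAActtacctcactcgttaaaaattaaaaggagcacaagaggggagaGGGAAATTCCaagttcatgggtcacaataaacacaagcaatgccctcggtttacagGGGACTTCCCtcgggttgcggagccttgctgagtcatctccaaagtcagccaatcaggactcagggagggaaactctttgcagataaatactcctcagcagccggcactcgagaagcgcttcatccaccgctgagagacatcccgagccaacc
The Cxcl9 sequence held no match to the ISRE core, to the gamma-activated sequence (GAS, TTCNNNGAA) or to the NF-kB consensus in this window. Cxcl10 held 1 match to the ISRE core, at position -213 from the start, and 2 to the NF-kB consensus, the first at position -159. Both strands were searched, and the matches in Cxcl10 do not overlap. The ISRE core was found in 3 of the 43 promoters matching the symbol rule (6.98%) and in 3.43% of all promoters, and GAS in 3 (6.98%) and in 8.29%.

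Cxcl12, which holds leukocytes in their niches and is made by stromal and endothelial cells, was the most abundant member and was nearly level across groups. Its values were 249, 254 and 272 CPM in Flox, 238, 210 and 253 CPM in F4MKO and 258, 283 and 246 CPM in F4MKO + FSTL1 livers. The groups overlapped, and the log2 fold change between F4MKO + FSTL1 and F4MKO was 0.16 (SE 0.11, adjusted p = 0.298, edgeR). Both receptors of Cxcl12 were called lower. Cxcr4, its signalling receptor, was at 1.87, 2.33 and 2.75 CPM in Flox, 5.80, 3.85 and 4.19 CPM in F4MKO and 0.934, 1.44 and 1.88 CPM in F4MKO + FSTL1 livers. The F4MKO livers stood above both other groups, which overlapped by a single value. Cxcr4 had the smallest adjusted p of all members, with a 3.27-fold lower level in F4MKO + FSTL1 than in F4MKO (log2 -1.71, SE 0.27, adjusted p = 0.00239, edgeR). In F4MKO it was 1.99-fold above Flox with an adjusted p of 0.105 by edgeR and 0.0268 by DESeq2. Ackr3, the atypical receptor that takes up CXCL12, was at 0.936, 1.06 and 1.02 CPM in Flox, 1.38, 1.47 and 1.20 CPM in F4MKO and 0.654, 0.481 and 0.522 CPM in F4MKO + FSTL1 livers. None of its groups overlapped, and the F4MKO + FSTL1 values rested on 14, 10 and 10 counts. Ackr3 was 2.42-fold lower in F4MKO + FSTL1 than in F4MKO (log2 -1.27, SE 0.26, adjusted p = 0.00638, edgeR).

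Cxcl14, a ligand made by epithelial and stromal cells, was at 2.67, 2.91 and 2.13 CPM in Flox, 6.22, 3.27 and 4.55 CPM in F4MKO and 2.20, 1.73 and 1.78 CPM in F4MKO + FSTL1 livers. The F4MKO livers lay above all others, and the remaining groups overlapped. Cxcl14 was 2.46-fold lower in F4MKO + FSTL1 than in F4MKO (log2 -1.30, SE 0.25, adjusted p = 0.0054, edgeR). Its promoter (RefSeq, GRCm38.p6, chr13:56296502-56296801, minus strand) is shown as the only one of the 14 called members' promoters with an ISRE core or a GAS match, here in capitals, GAS first.
Cxcl14: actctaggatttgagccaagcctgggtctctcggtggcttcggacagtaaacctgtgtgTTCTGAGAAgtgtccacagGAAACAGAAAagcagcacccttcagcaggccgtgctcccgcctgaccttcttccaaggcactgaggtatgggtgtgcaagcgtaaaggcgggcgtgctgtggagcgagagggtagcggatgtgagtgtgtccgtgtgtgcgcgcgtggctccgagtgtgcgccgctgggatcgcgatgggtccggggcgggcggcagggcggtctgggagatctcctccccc
The GAS match begins at position -191 from the start and that of the ISRE core at position -172.

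Ccr7, which guides dendritic cells and naive T cells to lymph nodes, was at 0.847, 0.778 and 0.754 CPM in Flox, 1.10, 0.879 and 1.12 CPM in F4MKO and 0.467, 0.240 and 0.627 CPM in F4MKO + FSTL1 livers. The 3 groups did not overlap, with Flox between the others. Ccr7 was 2.32-fold lower in F4MKO + FSTL1 than in F4MKO (log2 -1.22, SE 0.34, adjusted p = 0.0256, edgeR). This call was among the least stable, with adjusted p-values of 0.0759 without F4MKO replicate 1, 0.0565 without F4MKO replicate 3, 0.0596 without F4MKO + FSTL1 replicate 1 and 0.101 without F4MKO + FSTL1 replicate 2. Of its ligands, Ccl19 had 1 to 14 counts and was not tested. Cxcr6, the receptor of liver-resident lymphocytes, was at 0.580, 0.656 and 0.532 CPM in Flox, 0.814, 0.586 and 0.878 CPM in F4MKO and 0.374, 0.336 and 0.470 CPM in F4MKO + FSTL1 livers. All 3 F4MKO + FSTL1 values were the lowest, but the test was missed (log2 -0.95, SE 0.32, adjusted p = 0.0547, edgeR). Xcr1, the receptor of cross-presenting dendritic cells, was at 0.624, 0.738 and 0.532 CPM in Flox, 1.56, 1.05 and 1.04 CPM in F4MKO and 0.934, 0.385 and 0.679 CPM in F4MKO + FSTL1 livers. The F4MKO values lay above all others with no call (adjusted p = 0.0937 against F4MKO + FSTL1 and 0.2 against Flox, edgeR). Its ligand Xcl1 had 2 to 15 counts per library and overlapped in all groups.

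The neutrophil attractants of the ELR class showed no call. Cxcl1 was at 9.14, 7.91 and 10.6 CPM in Flox, 9.44, 5.95 and 7.26 CPM in F4MKO and 8.83, 6.49 and 13.4 CPM in F4MKO + FSTL1 livers, with full overlap (log2 0.33, SE 0.25, adjusted p = 0.368 in F4MKO + FSTL1 compared with F4MKO, edgeR). Cxcl2 gave a log2 value of -0.49 (SE 0.33, adjusted p = 0.326) in the same comparison. Their receptor Cxcr2 had 1 to 18 counts per library and a log2 fold change of -1.14 with a wide error (SE 0.57, adjusted p = 0.174). Cxcl3 and Cxcl5 had 0 to 2 counts in every library. The B cell attractant Cxcl13 and the gut homing ligand Ccl25 were the members that lay lower in every F4MKO than in every Flox liver. Cxcl13 was at 1.69, 2.25 and 3.42 CPM in Flox, 0.743, 1.42 and 0.878 CPM in F4MKO and 0.934, 1.30 and 3.24 CPM in F4MKO + FSTL1 livers (log2 -1.28 in F4MKO compared with Flox, SE 0.45, adjusted p = 0.194, edgeR). Ccl25 was at 5.08, 3.61 and 3.73 CPM in Flox, 2.97, 3.18 and 2.60 CPM in F4MKO and 3.92, 4.28 and 3.81 CPM in F4MKO + FSTL1 livers (log2 -0.50, SE 0.18, adjusted p = 0.206). Neither difference passed the test, and their receptors Cxcr5 and Ccr9 overlapped between all groups except that Ccr9 was lower in every F4MKO + FSTL1 than in every Flox liver, on 3 to 11 counts in those libraries. Ccl28, a mucosal ligand, ranged from 2 to 13 counts per library and varied as much within groups as between them.

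The 4 atypical receptors did not move together. Ackr3 was called lower, as described above, and Ackr4, which takes up the ligands of CCR7 and CCR9, was called higher in F4MKO + FSTL1 than in F4MKO livers. Ackr4 was at 1.52, 1.06 and 1.91 CPM in Flox, 1.03, 0.963 and 1.16 CPM in F4MKO and 1.68, 1.87 and 2.25 CPM in F4MKO + FSTL1 livers. The F4MKO + FSTL1 values lay above those of F4MKO and overlapped Flox, and the difference was 1.84-fold (log2 0.88, SE 0.26, adjusted p = 0.0372, edgeR). The call was lost without F4MKO replicate 1 (adjusted p = 0.0996), 2 (0.0934) or 3 (0.0506) and without F4MKO + FSTL1 replicate 2 (0.0859) or 3 (0.0985). Ackr4 shares 479 exon bases with Acad11 on the other strand, whose level was 378 CPM in F4MKO and 488 CPM in F4MKO + FSTL1 livers (log2 0.37, adjusted p = 0.0288, edgeR). Whether strand was used in counting is not given in the sources used here, so reads of Ackr4 and Acad11 cannot be told apart in the shared bases. Ackr1, the Duffy receptor of erythroid cells and venules, and Ackr2, a scavenger of inflammatory CC chemokines, had log2 fold changes of 0.19 and -0.22 (adjusted p = 0.766 and 0.49). Ackr1 shares 25.7% of its exon bases with Cadm3 on the same strand.

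**Figure D2:**
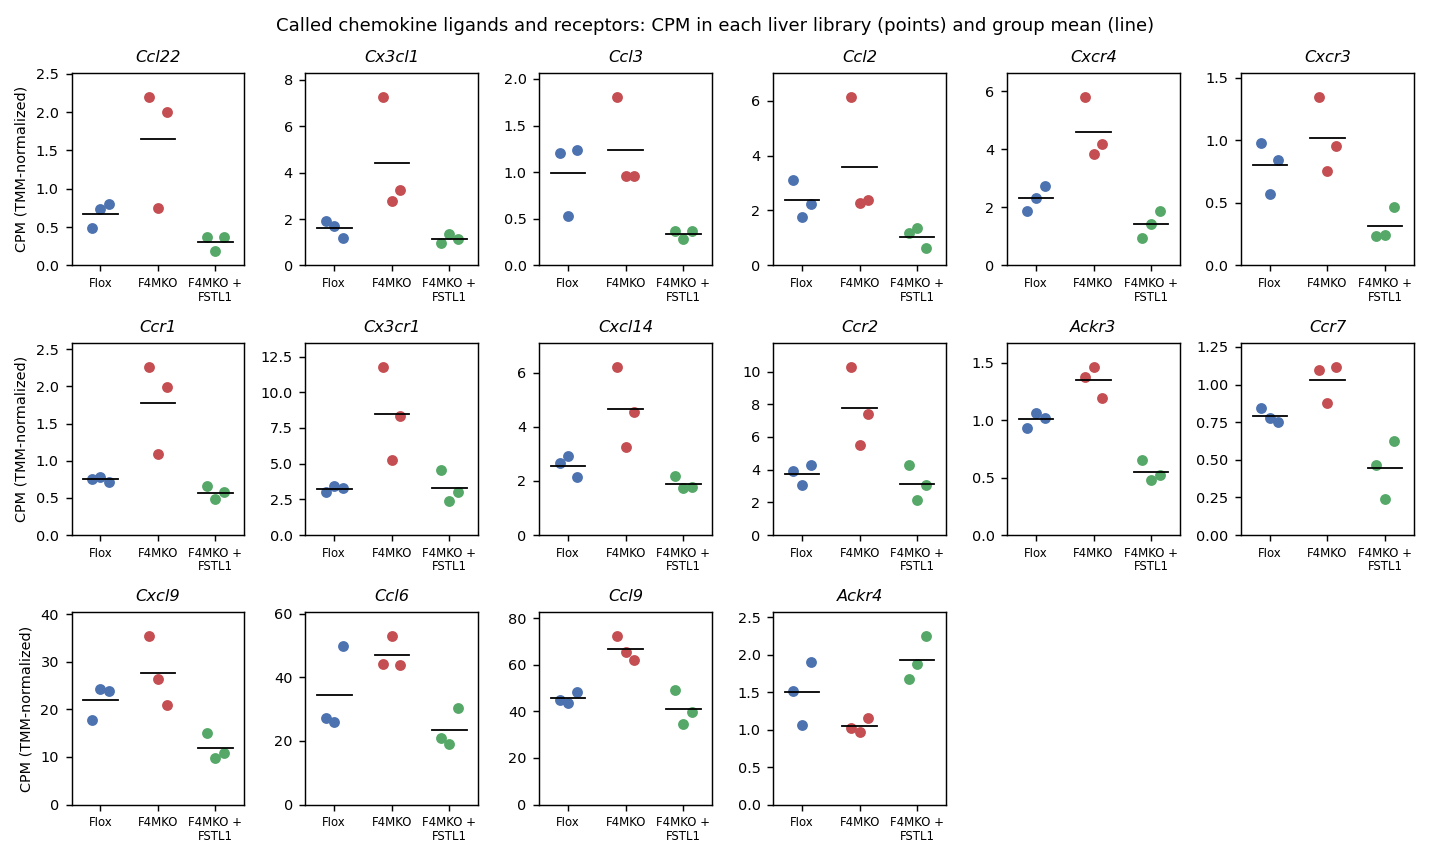
CPM of 16 called members in each liver library (points, TMM-normalized) with the group mean (line), for 3 Flox, 3 F4MKO and 3 F4MKO + FSTL1 livers, each panel with its own axis from 0. The 15 members shown that were called lower have their F4MKO + FSTL1 points below all F4MKO points, and Ackr4 shows the opposite order.

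In all, 18 members were not tested, with at most 14 counts in any library and, for 8 of them, at most 3. They were the ligands Ccl1, Ccl8, Ccl11, Ccl12, Ccl17, Ccl19, Ccl20, Ccl26, Cxcl3, Cxcl5, Cxcl16 and Cxcl17 and the receptors Ccr3, Ccr4, Ccr6, Ccr8, Ccr10 and Cxcr1. Ccr3, an eosinophil receptor, had 2, 3 and 0 counts in Flox, 4, 4 and 3 in F4MKO and 0 in every F4MKO + FSTL1 library, and it was called lower in F4MKO + FSTL1 than in F4MKO livers once the filter on low counts was left out. Ccl17, a ligand of CCR4, had 0, 7 and 5 counts in Flox, 9, 10 and 3 in F4MKO and 0, 2 and 1 in F4MKO + FSTL1 libraries, so all F4MKO + FSTL1 values lay below all F4MKO values. Cxcl16, the ligand of CXCR6, had 0 to 4 counts, and 18.3% of its exon bases are shared with Zmynd15 on the other strand. The treatment of reads shared by overlapping or near-identical genes is not given in the sources used here, and it could affect the close relatives Ccl3 and Ccl4, Ccl6 and Ccl9, Ccl2, Ccl7 and Ccl12, and Cxcl1 and Cxcl2.

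Levels were compared between genes as CPM per kilobase of the longest GENCODE vM21 transcript. In Flox livers Cxcl12 was highest at 45.9 ± 2.16 CPM per kilobase (SD, n = 3), followed by Ccl6 at 23.8 ± 9.29 and Ccl9 at 15.2 ± 0.828. The spread of Ccl6 reaches down to Ccl9, so the order of these 2 is not fixed by the Flox livers. Cxcl9 followed at 7.60 ± 1.28 CPM per kilobase, and Ccl5, Cxcl1, Ccl24 and Cxcl10 lay between 5.52 and 3.87 with overlapping spreads. The spread of Ccl5 (5.52 ± 1.94) also reached that of Cxcl9, so their order is not fixed either. Ccl2 and Cxcl13 came next at 2.16 and 2.13 CPM per kilobase. The receptors Ackr1 (1.40 ± 0.661), Cxcr4 and Ackr2 lay lower, with overlapping spreads, and their order changed when the median transcript length was used. In F4MKO livers the level per kilobase of Ccl6 was 32.6 ± 3.56 and that of Ccl9 22.1 ± 1.74, whereas Cxcl12 was at 41.6 ± 3.84. The 3 highest genes were the same when the median transcript length was used.

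**Figure D3:**
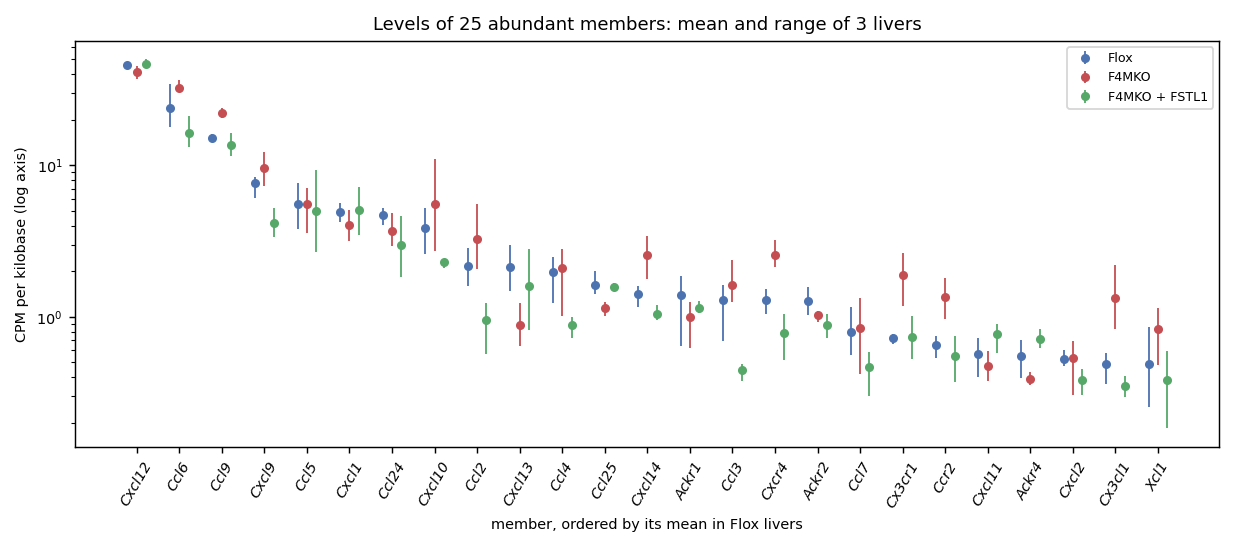
CPM per kilobase of the longest transcript on a log axis for 25 abundant members ordered by their Flox mean, with points for the mean and lines for the range of 3 livers per group. Cxcl12 overlaps between groups, while Ccl9, Cxcr4, Cx3cr1, Ccr2 and Cx3cl1 have F4MKO ranges above the F4MKO + FSTL1 ranges.

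Several called members are neighbours in the genome (GRCm38). Ccl9 (chr11:83572919-83578636), Ccl6 (chr11:83587882-83593087) and Ccl3 (chr11:83647844-83649355) lie on the minus strand in a cluster with Ccl5 and Ccl4. Of this cluster of 5 genes, 3 were called lower in F4MKO + FSTL1 than in F4MKO livers, beside 16 of all 37 tested members and 11.2% of all genes, and Ccl4 and Ccl5 were not called. On chromosome 9, the receptor genes Ccr1 (chr9:123962124-123968692) and Ccr2 (chr9:124101950-124113557) were called lower, and Ccr3 between them was not tested. Ccr9, Cxcr6 and Xcr1 nearby were not called. Elsewhere on this chromosome, Cx3cr1 (chr9:119901616-120069879) was called lower and Ackr4 (chr9:104084157-104126933) higher. Ackr2 and Cxcr5 there were not called, and Ccr4 and Ccr8 were not tested.

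Other genes of the pathway were read from lists chosen with earlier results of these data known. Of 35 tested genes that act downstream of chemokine receptors, 19 were called lower and 0 higher in F4MKO + FSTL1 than in F4MKO livers (edgeR), where 11.2% and 3.21% of all genes were, with a median log2 fold change of -0.79 against 0.01 over all genes. The smallest p-values were those of Ncf1 (log2 -0.93, adjusted p = 0.00182), a subunit of the phagocyte NADPH oxidase, Dock2 (-1.21, 0.00197) and Elmo1 (-1.47, 0.00207), partners that activate Rac in moving leukocytes, Rgs2 (-0.99, 0.00232), a brake on G proteins, and the GTPase Rac2 (-0.87, 0.00402). Elmo1 was at 2.01, 2.95 and 3.86 CPM in Flox, 6.68, 5.78 and 5.71 CPM in F4MKO and 2.29, 1.92 and 2.35 CPM in F4MKO + FSTL1 livers, and its F4MKO values lay above all others. Of 18 tested inducers of chemokine transcription, 7 were called lower and 0 higher (median log2 -0.39), beside the same 11.2% and 3.21% of all genes, led by Ifngr1 (-0.71, adjusted p = 0.00154), a chain of the interferon gamma receptor, and Cd14 (-1.52, adjusted p = 0.00346), a co-receptor for bacterial lipopolysaccharide. Ifng itself had 0 to 4 counts and was not tested. Members of the family outside the symbol rule gave 3 tested genes. Ccl27a was called higher (log2 0.67, adjusted p = 0.00429), and Cmklr1, the chemerin receptor (-1.19, 0.00236), and Ccrl2 (-0.81, 0.0265), which presents chemerin, were called lower. In F4MKO compared with Flox livers 0 genes of these 3 lists were called by edgeR.

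Markers of several cell types moved with the chemokine genes, and their counts stand beside 11.2% of all genes called lower in F4MKO + FSTL1 than in F4MKO livers and 3.21% called higher. All 10 monocyte and recruited macrophage markers were called lower in F4MKO + FSTL1 than in F4MKO livers, and their summed level was 174 to 187 CPM in Flox, 360 to 650 CPM in F4MKO and 92.9 to 133 CPM in F4MKO + FSTL1 livers. Spp1, which is also in the cholangiocyte list, made up a large part of this sum with 397, 143 and 203 CPM in the F4MKO livers. Resident macrophage markers were called lower in 6 of 10, with sums of 692 to 1089 CPM in Flox, 780 to 887 CPM in F4MKO and 406 to 656 CPM in F4MKO + FSTL1 livers. The 18 signalling chemokine receptors summed to 23.8 to 25.8 CPM in Flox, 32.3 to 51.2 CPM in F4MKO and 13.4 to 20.8 CPM in F4MKO + FSTL1 livers. The ligands without Cxcl12 summed to 137 to 172 CPM in Flox, 176 to 230 CPM in F4MKO and 95.4 to 128 CPM in F4MKO + FSTL1 livers. In all 3 of these sums (monocyte markers, receptors and ligands without Cxcl12) the groups did not overlap. In each of them F4MKO replicate 1 was the highest library.

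Stellate cell and myofibroblast markers were called lower in 7 of 10, with sums of 414 to 483 CPM in Flox, 561 to 720 CPM in F4MKO and 269 to 375 CPM in F4MKO + FSTL1 livers. Cholangiocyte markers were called lower in 4 of 5 tested, with sums of 50.8 to 89.0 CPM in Flox, 161 to 432 CPM in F4MKO and 36.1 to 54.2 CPM in F4MKO + FSTL1 livers. In both lists the F4MKO sums lay above all Flox sums. Most of the cholangiocyte sum in each F4MKO liver (432, 161 and 223 CPM) was Spp1, the gene shared with the monocyte list. The cholangiocyte and monocyte sums are therefore not independent of each other. In F4MKO compared with Flox livers, where 0 chemokine genes were called, Gpnmb (log2 1.70) and Spp1 (log2 2.05, both adjusted p = 0.0404, edgeR) of the monocyte list and Epcam (log2 2.01, adjusted p = 0.0359) and Spp1 of the cholangiocyte list were called higher, beside 0.202% of all genes. Of the neutrophil markers, 1 of 5 tested was called lower, Cxcr2 is 1 of those 5, and Ly6g had 0 to 2 counts in every library. Dendritic cell markers were called lower in 2 of 6 tested and B and plasma cell markers in 1 of 8, and Tnfrsf17 had at most 2 counts. The single calls among neutrophil and B and plasma cell markers are near the share of all genes called lower and alone are not a result about those cells. All 5 tested neutrophil markers had a negative log2 fold change (median -1.08), beside 48.6% of all genes. Without Cxcr2 the neutrophil markers summed to 8.43 to 11.23 CPM in Flox, 11.27 to 15.67 CPM in F4MKO and 5.29 to 8.46 CPM in F4MKO + FSTL1 livers. B and plasma cell markers summed to 195 to 313, 199 to 257 and 270 to 308 CPM in the same order. T and NK lymphocyte markers gave 0 of 7 calls by edgeR, with sums of 5.90 to 9.44 CPM in F4MKO and 3.13 to 9.92 CPM in F4MKO + FSTL1 livers. Liver endothelial markers gave 0 of 10 calls, and hepatocyte markers 1 lower and 1 higher of 10. The part of these cell types in the chemokine values was not tested.

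**Figure D4:**
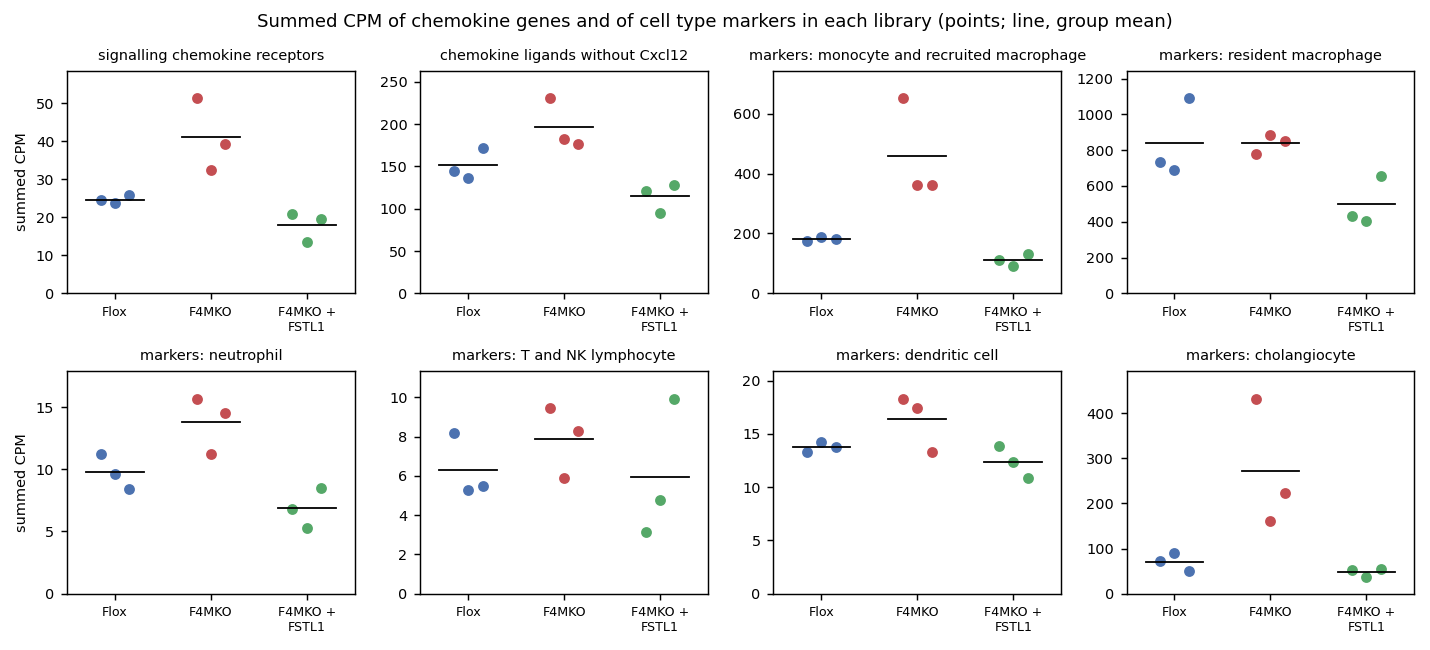
Summed CPM of the signalling receptors, of the ligands without Cxcl12 and of 6 cell type marker lists in each library (points) with group means (lines), 3 livers per group and axes from 0. Receptors, ligands and monocyte markers are highest in F4MKO and lowest in F4MKO + FSTL1 livers without overlap, whereas the T and NK lymphocyte sums overlap. The monocyte and cholangiocyte lists share Spp1.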

How the data were processed

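RNA from 9 whole livers (3 Flox, 3 F4MKO, 3 F4MKO + FSTL1) was sequenced by the authors as 150-base paired reads. Per the submitters' processing notes, the authors used Trim Galore 0.6.7, HISAT2 2.2.1 and featureCounts 2.0.1 with mm10, and deposited whole read counts per gene, neither normalized nor filtered. Gene annotation, strand setting and the treatment of reads mapping to several genes are not given in the sources used here. Groups came from the sample titles, and each library was a separate mouse.

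Counts were fitted with edgeR 4.0.16 (R 4.3.3) by the quasi-likelihood test, with TMM factors of 0.927 to 1.17, a mean per group and all 9 libraries (common biological coefficient of variation 0.15). Genes needed about 10 counts (0.432 CPM in the median library) in at least 3 libraries and 15 in total. A call required an adjusted p under 0.05 (Benjamini-Hochberg over all 14379 genes) and a fold change above 1.5. A single read was worth 0.0354 to 0.0522 CPM. The code was tested on simulated data.

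Alternatives were DESeq2 1.42.0, its size factors in edgeR, no filter, only the 6 libraries compared, a replicate block, no fold threshold, a test against a 1.5-fold change and each library left out. Values were given for every called member and for tested ligands or receptors of a called member, with other members by range or counts, and for at most 5 genes of each pathway list, by smallest p-value. Other members were added after their values were seen, and 1 member is counted but not reported here. Members and lists were chosen with earlier results of these data known. Gene positions and lengths came from GENCODE vM21 and promoters from RefSeq, both GRCm38.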

Additional observations from a re-analysis of the deposited data

How the results depend on the processing

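In F4MKO + FSTL1 compared with F4MKO, the count of 17 called members was 17 to 20 under DESeq2, its size factors, no filter, the 6 libraries alone, the block and no fold threshold. It was 6 in the test against a 1.5-fold change (Cxcr4, Cxcl14, Cxcl9, Ccl22, Cx3cl1 and Ccr1), and 11 to 18 when each library was left out, with the lowest count without F4MKO + FSTL1 replicate 2 and the highest without F4MKO replicate 2. In F4MKO compared with Flox, the count of 0 became 4 with DESeq2, 7 without the filter and 0 to 1 when each library was left out, the 1 being Cx3cr1 without F4MKO replicate 2. In F4MKO + FSTL1 compared with Flox, it became 2 with DESeq2 and 2 without the filter, and stayed at 0 whichever library was left out.

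The replicate block gave 19 called members in F4MKO + FSTL1 compared with F4MKO, 2 in F4MKO compared with Flox (Cx3cr1 and Ccr2) and 0 in F4MKO + FSTL1 compared with Flox. Same-numbered libraries came from different mice, so the numbers were not taken to pair the samples. Their deviations from group means correlated at 0.111, 0.0919 and 0.304 across genes in the first of these comparisons. The correlations lay between 0.0422 and 0.169 in the second and between -0.0985 and 0.206 in the third. The libraries that correlated best with their own number were 6 of 6, 5 of 6 and 2 of 6 in that order. Beyond the block, an effect shared by replicate number was not tested.

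Among the called members, signs turned for Ccl2, Ccl3 and Cx3cr1. The log2 fold change of Ccl2 between F4MKO and Flox was -0.0187 without F4MKO replicate 1 (up to 0.86 over the libraries left out), and that of Ccl3 was -0.0373 (up to 0.53). For Cx3cr1 between F4MKO + FSTL1 and Flox it was -0.0313 with the replicate block and -0.27 to 0.23 when each library was left out. The cause was not tested.

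Calls over all genes moved more. For F4MKO compared with Flox, 39 genes were called, and 338 with DESeq2, 478 without the filter, 11 with the 6 libraries alone, 134 with the replicate block, 0 against a 1.5-fold change and 0 to 100 with a library left out. For F4MKO + FSTL1 compared with F4MKO, 2070 became 620 against a 1.5-fold change and 1295 to 2216 with a library left out (1295 without F4MKO + FSTL1 replicate 2, 1335 without F4MKO replicate 1). For F4MKO + FSTL1 compared with Flox, 1 became 284, 379, 0, 15 and 0 under the same alternatives in that order, 2 with DESeq2's size factors and 0 to 101 with a library left out. Levels per kilobase of the 10 most abundant members rose with the median transcript length in 7 cases beyond 1 SD, for example from 45.9 to 85.7 for Cxcl12. Members under about 15 counts per library, such as Ccl22, Ccl3, Ccr1, Ccr7, Cxcr3 and Ackr3 in F4MKO + FSTL1 livers, are limited by depth.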
